A study of Mus musculus with 27 samples.

Results

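The genes described here encode enzymes that break down the branched-chain amino acids leucine, isoleucine and valine, together with the kinase that holds the pathway in check. The group was given as a list of names, Bcat2, Bckdha, Bckdhb, Bckdk, Dbt, Ivd, Mccc1, Mccc2, Hibch and Hibadh, and all 10 are among the 8987 genes measured. Messenger RNA was sequenced from the left ventricle of 11 adult FVB mice, 7 days after surgery. The surgery was either sham or TAC, transverse aortic constriction, in which a band around the aorta makes the ventricle pump against higher pressure. There were 4 wild-type (WT) sham mice (animals 6, 7, 13 and 15) and 3 WT TAC mice (1, 17 and 19). In addition 2 caPI3Kalpha sham mice (5 and 8) and 2 caPI3Kalpha TAC mice (11 and 211) were sequenced. In caPI3Kalpha mice the catalytic alpha subunit of phosphoinositide 3-kinase is permanently active; the labels call them PI3Kalpha mutant and do not say in which cells it is made. By its title each library comes from the ventricle of 1 numbered mouse, so p-values measure the spread between mice. In models without a term for the library sets described below, that spread also holds the difference between the sets. For WT sham 15 another label gives the number 13.

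Breakdown of these amino acids takes place in mitochondria. Bcat2 removes the amino group, and the branched-chain ketoacid dehydrogenase complex then commits the carbon skeleton to oxidation. Bckdha and Bckdhb encode the alpha and beta chains of the first subunit of that complex (E1) and Dbt its core (E2). The kinase Bckdk switches the complex off by phosphorylating the alpha chain, and the phosphatase Ppm1k switches it on again. After this step the pathways part: Ivd, Mccc1 and Mccc2 serve leucine, and Hibch and Hibadh serve valine. In heart muscle the end products feed the citric acid cycle or ketone metabolism.

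The levels are RPKM, read density scaled to transcript length and library size, so that levels of different genes can be set side by side. Depth is unknown, since the table holds no read counts. Changes are differences of log2(RPKM + 0.5) with their standard error (SE), from limma fitted to all 8987 genes, and a gene passed at a Benjamini-Hochberg adjusted p under 0.05. Pik3ca, the gene of the overexpressed subunit, lay between 5.3 and 8.9 RPKM in the 7 WT libraries and between 101.3 and 195 in the 4 caPI3Kalpha libraries. The libraries fell into 2 sets according to the sign of principal component 1 (52.0% of the variance). In the first set were all 4 caPI3Kalpha libraries together with WT sham 6 and WT TAC 1. WT sham 7, 13 and 15 and WT TAC 17 and 19 made up the second set. The labels do not give these sets. They were read from the same data, and because no caPI3Kalpha library lies in the second set, set and genotype are partly mixed in every comparison between genotypes. For the results that turn on the set, values from a model that includes it, or from within a set, are given as well.

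Upstream sequences are shown for 4 genes on which the results turn: Ivd, Mccc2 and Bckdhb, which fell in WT TAC, and Bckdha, which was higher in caPI3Kalpha TAC than in WT TAC. RefSeq's promoter table (GRCm38.p6) matched 9 of the 10 genes, and the exception is Dbt. Each run holds the 250 bases before the annotated start, 5′ to 3′ on the strand of the gene. They lie at chr2:118861744-118861993 (plus strand), chr13:100015640-100015889 (minus strand), chr9:83924887-83925136 (plus strand, the first of 2 annotated starts) and chr7:25658762-25659011 (minus strand). Capitals mark the CCAAT box, searched on both strands, where it reads CCAAT or ATTGG.
Ivd: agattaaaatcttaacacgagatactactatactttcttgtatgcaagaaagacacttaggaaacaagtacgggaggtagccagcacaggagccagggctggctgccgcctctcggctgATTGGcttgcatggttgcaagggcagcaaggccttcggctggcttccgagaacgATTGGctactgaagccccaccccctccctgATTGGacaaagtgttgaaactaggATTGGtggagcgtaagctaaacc
Mccc2: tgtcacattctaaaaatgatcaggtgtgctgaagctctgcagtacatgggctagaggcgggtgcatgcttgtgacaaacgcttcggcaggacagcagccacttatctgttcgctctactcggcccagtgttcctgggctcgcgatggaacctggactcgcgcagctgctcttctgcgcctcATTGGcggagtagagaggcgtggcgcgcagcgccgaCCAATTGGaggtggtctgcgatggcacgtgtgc
Bckdhb: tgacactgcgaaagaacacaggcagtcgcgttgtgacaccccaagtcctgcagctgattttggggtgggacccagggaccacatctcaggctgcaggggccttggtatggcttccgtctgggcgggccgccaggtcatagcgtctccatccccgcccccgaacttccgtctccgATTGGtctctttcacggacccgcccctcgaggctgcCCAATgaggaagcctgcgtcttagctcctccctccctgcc
Bckdha: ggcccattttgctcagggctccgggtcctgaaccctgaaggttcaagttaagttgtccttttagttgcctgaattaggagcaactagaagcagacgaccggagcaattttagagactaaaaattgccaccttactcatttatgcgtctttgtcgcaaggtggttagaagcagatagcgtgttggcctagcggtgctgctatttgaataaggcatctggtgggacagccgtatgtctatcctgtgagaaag
The Ivd window held 4 such matches, the Mccc2 window 3, of which 2 overlap in CCAATTGG, and the Bckdhb window 2, while Bckdha had none. Of all 32851 promoters 33.8% held at least 1 match within the same 250 bases and 10.1% held 2 or more. Across all 11 entries for the 9 genes, 6 held CCAAT (Ivd, Mccc1, Hibadh, Bckdk, Bckdhb and Mccc2). Other motifs searched on both strands were CACCC, the core of sites for Kruppel-like factors (7 of 11 entries, 52.0% of all promoters), and GGGCGG, the GC box (4 of 11, 32.7%). TATAAA was found upstream of Bckdk alone (12.4% of all promoters) and AAGGTCA, a half-site of estrogen-related receptors, in 0 of 11 (4.08%). The windows held between 2 CpG pairs (Mccc1) and 20 (Hibadh), against a median of 6 over all promoters. The motif shown was chosen after the windows had been searched, and a match is a description of the letters only.

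In the WT sham ventricle Hibadh stood highest at 113 ± 19.1 RPKM (SD, n = 4), ahead of Ivd (71.6 ± 3.37) and Bckdha (50.8 ± 10.1). Bcat2 (29.9 ± 6.80), Hibch (27.9 ± 4.95), Bckdhb (26.2 ± 2.95) and Dbt (20.4 ± 3.60) followed, and each overlapped its neighbour in this order. Mccc2 (15.8 ± 0.932) and Bckdk (13.4 ± 1.26) overlapped in range. Mccc1, which encodes the biotin-bearing subunit of methylcrotonyl-CoA carboxylase, stood lowest at 8.95 ± 0.597. The 2 chains of E1 are built in equal numbers into the complex, yet Bckdha messenger stood at 1.54 to 2.90 times the level of Bckdhb in the 4 WT sham libraries. In WT TAC the first 3 places were the same. In caPI3Kalpha TAC Bckdha (73.4 ± 7.99, SD, n = 2) stood second, with a range that met that of Hibadh (80.0 ± 5.09). Bckdk (18.4 ± 0.141) there stood above Mccc2, Bckdhb and Dbt, whose means were all above it in WT sham. Neither shift was confined to caPI3Kalpha TAC. In caPI3Kalpha sham the mean of Bckdha (69.8) also stood second, overlapping Ivd. The mean of Bckdk there stood above Dbt, with overlap, but below Mccc2 and Bckdhb. In WT TAC 1, of the first set, Bckdk (14.5) stood above Bckdhb (13.4), Mccc2 (11.2) and Dbt (10.5). In WT sham 6 Bckdk (15.3) stood above Dbt (15.2) but below Mccc2 and Bckdhb.

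**Figure D1:**
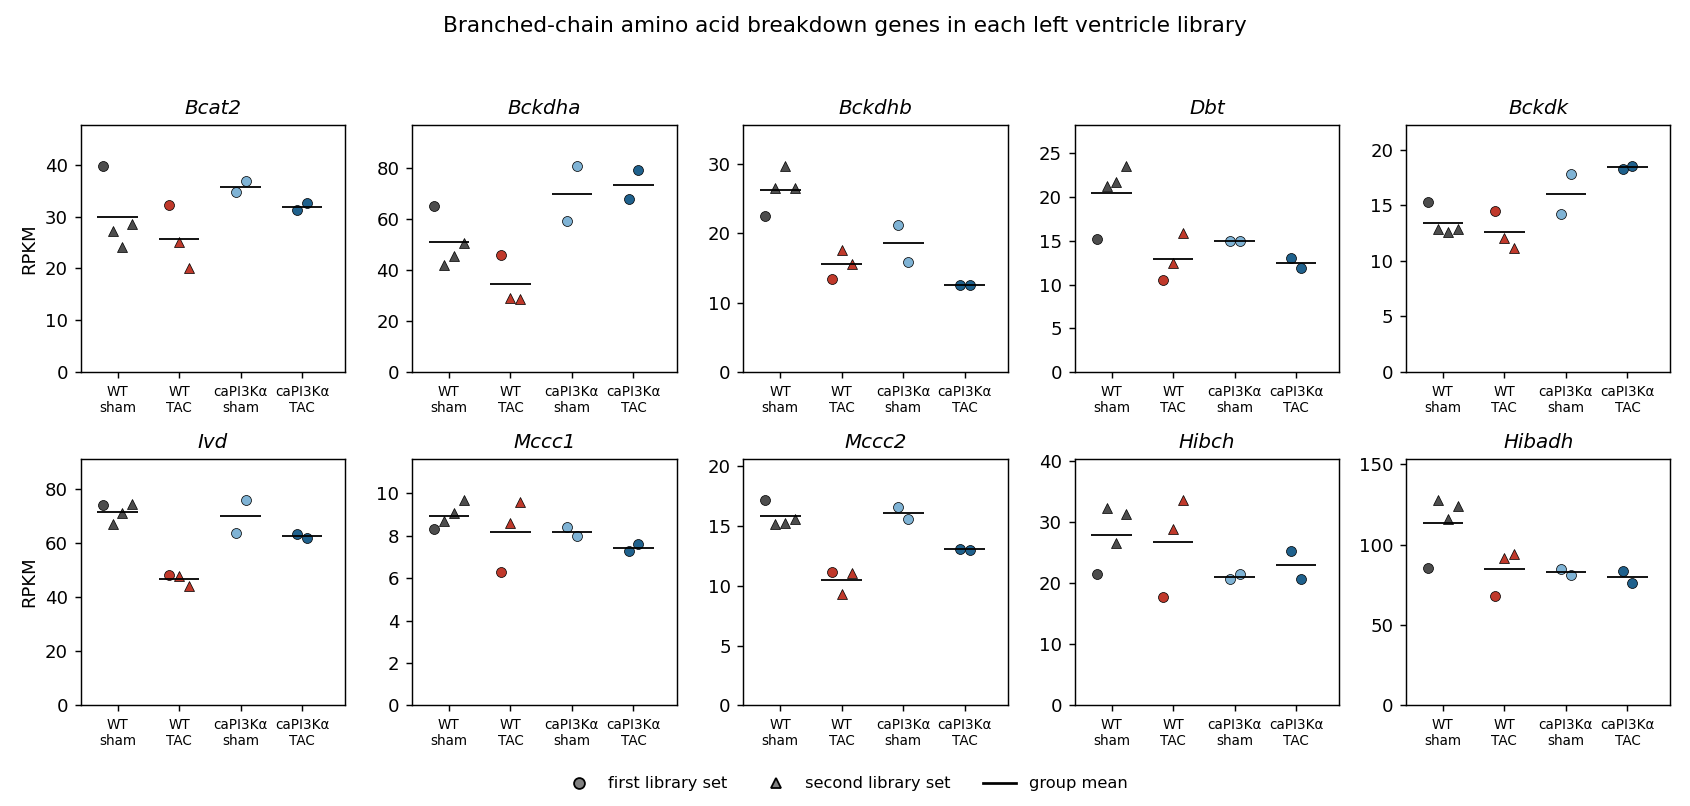
RPKM of the 10 genes in each library by group; circles are libraries of the first set, triangles of the second, and bars are group means. Ivd, Mccc2 and Bckdhb are lower in all 3 WT TAC libraries than in all 4 WT sham libraries, and the mean of Bckdha is highest in caPI3Kalpha TAC.

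The first comparison, WT TAC with WT sham, asks what pressure load does to these messengers in the normal ventricle. Of the 10 genes 4 fell (Bckdhb, Dbt, Ivd and Mccc2) and none rose, while 2.85% of all genes fell and 16.5% passed in either direction. All 10 estimates were below 0, as were 2536 of all 8987. Their median was -0.49, against a median of 0.17 over all genes. The genes that passed encode the beta chain of E1, the core of the complex, and an early and a later step of leucine oxidation. Lower in every WT TAC library than in every WT sham library were 3 of the 10 (Bckdhb, Ivd and Mccc2), as were 4.65% of all genes.

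Within the dehydrogenase complex Bckdhb, the beta chain of E1, measured 22.4, 26.5, 29.6 and 26.5 RPKM in WT sham 6, 7, 13 and 15, and 13.4, 17.5 and 15.6 in WT TAC 1, 17 and 19. The groups did not overlap. The log2 change of Bckdhb was -0.74 (SE 0.14, adjusted p = 0.00582), which is -40.2%. Dbt, the E2 core, measured 15.2, 21.2, 21.7 and 23.5 RPKM in WT sham against 10.5, 12.5 and 15.9 in WT TAC. Its groups overlapped, because WT sham 6 lay just under WT TAC 19, and it fell by 0.64 (SE 0.17, adjusted p = 0.0273). Without WT sham 7, 13 or 15, or WT TAC 1 or 17, Dbt no longer passed (adjusted p from 0.0630 to 0.0938), although its change stayed between -0.50 and -0.62. Bckdha, the alpha chain of E1, measured 65.0, 42.0, 45.6 and 50.7 RPKM in WT sham against 46.0, 28.8 and 28.6 in WT TAC. Here too the first-set library of each group stood apart, this time above the rest, and the change of -0.57 (SE 0.20, adjusted p = 0.0792) did not pass. The kinase gene Bckdk measured 15.3, 12.9, 12.6 and 12.9 RPKM in WT sham against 14.5, 12.1 and 11.2 in WT TAC, a change of -0.09 (SE 0.13, adjusted p = 0.672).

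In the leucine branch Ivd, isovaleryl-CoA dehydrogenase, measured 74.0, 67.0, 71.0 and 74.2 RPKM in WT sham against 48.1, 47.8 and 44.0 in WT TAC. The lowest sham library lay well above the highest TAC library, and Ivd fell by 0.61 (SE 0.10, adjusted p = 0.00263), which is -34.6%. Mccc2, the second subunit of methylcrotonyl-CoA carboxylase, measured 17.2, 15.2, 15.3 and 15.6 RPKM in WT sham against 11.2, 9.3 and 11.1 in WT TAC. It fell by 0.57 (SE 0.11, adjusted p = 0.00525), again without overlap. Its partner Mccc1 measured 8.3, 8.7, 9.1 and 9.7 in WT sham against 6.3, 8.6 and 9.6 in WT TAC, and the groups overlapped (-0.14, SE 0.14, adjusted p = 0.519). The 2 subunits of 1 enzyme thus gave different calls; the difference between their changes was not tested.

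In the valine branch Hibadh, 3-hydroxyisobutyrate dehydrogenase, measured 85.6, 127.8, 115.9 and 123.9 RPKM in WT sham against 67.9, 91.7 and 93.9 in WT TAC. WT sham 6 lay below 2 of the 3 TAC libraries, and the change of -0.42 (SE 0.16, adjusted p = 0.0965) did not pass. Hibch, which releases the free acid on which Hibadh acts, measured 21.5, 32.3, 26.6 and 31.3 in WT sham against 17.7, 28.9 and 33.7 in WT TAC (-0.09, SE 0.21, adjusted p = 0.814). Bcat2, the mitochondrial transaminase at the head of the pathway, measured 39.7, 27.2, 24.1 and 28.6 in WT sham against 32.2, 25.1 and 20.0 in WT TAC (-0.21, SE 0.19, adjusted p = 0.476). The 95% interval of the Bcat2 change ran from -0.62 to 0.20 in this model, whose spread includes the difference between library sets.

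The library sets bear on which genes passed. The difference between the sets had the same sign in WT sham and in WT TAC for 10 of the 10 genes, as for 84.9% of all genes. Bcat2, Bckdha, Bckdk, Mccc2 and Ivd were higher in the first-set library of both groups, and Bckdhb, Dbt, Mccc1, Hibch and Hibadh were lower. The difference was 0.57 and 0.51 for Bcat2 in WT sham and WT TAC on the log2 scale, and -0.47 and -0.80 for Hibch, but 0.07 in both groups for Ivd. Over all 11 libraries the set, entered before the group, held 78.4% of the variance of Hibch and 3.53% of that of Ivd. Entered after the group, it held 59.5% and 0.817%. Each set difference in WT rests on 1 first-set library per group, and what separates the sets is not recorded.

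**Figure D2:**
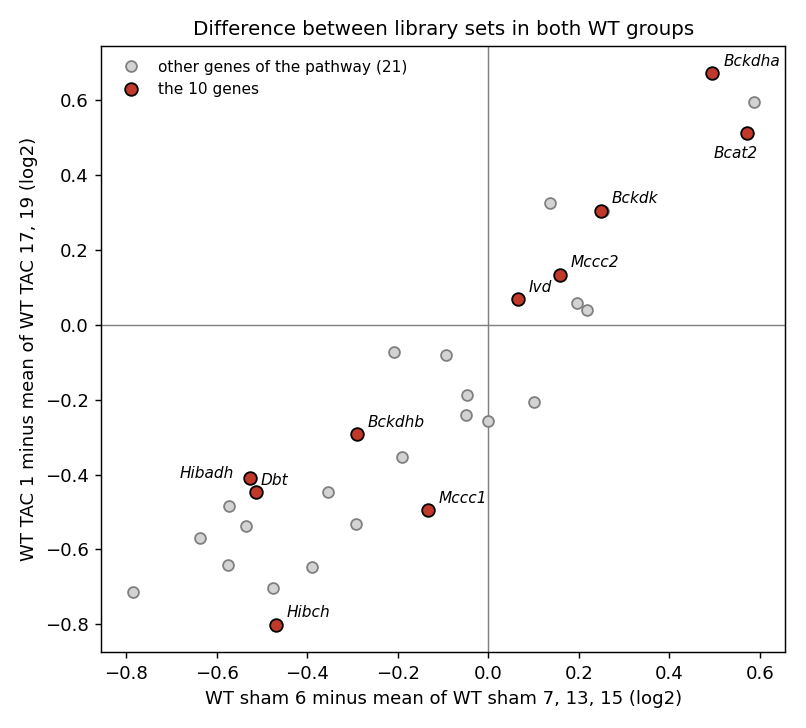
Difference between the first-set library and the mean of the second-set libraries in WT sham (horizontal, log2) and in WT TAC (vertical, log2), for the 10 genes (red) and 21 other pathway genes (grey). The 10 genes lie either above 0 on both axes or below 0 on both, with Ivd and Mccc2 nearest to 0 among those higher in the first set.

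With a term for the set, 7 of the 10 genes fell in WT TAC, where 9.01% of all genes fell. The additions were Bckdha (-0.62, adjusted p = 0.00113), Hibadh (-0.38, adjusted p = 0.000716) and Bcat2 (-0.26, adjusted p = 0.0358). With the term 3785 of all genes passed in either direction, against 1481 without it. Because the set was read from the same data, p-values with its term may be too small. Within the second set alone 6 of 10 fell, against 6.69% of all genes: Bckdha, Bckdhb, Dbt, Ivd, Mccc2 and Hibadh. Within the first set WT TAC 1 was below WT sham 6 for 10 of 10 genes, as it was for 31.8% of all genes. A limma fit of that comparison has 1 library in each group and takes its spread from the caPI3Kalpha libraries. Its calls cannot decide which genes fell. In both sets at once, all TAC libraries lay under all sham libraries for 7 of 10 genes and for 10.9% of all genes. Bckdhb changed by -0.72 in either set, Ivd by -0.62 in either set, and Mccc2 by -0.60 in the first and -0.57 in the second. Mccc1 stood at -0.37 in the first set and -0.01 in the second, Hibch at -0.27 and 0.06, and Bckdk at -0.07 and -0.13.

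Markers of cell types moved in the same comparison. The summed level of 10 cardiomyocyte markers ranged from 25566.5 to 27055.6 RPKM in WT sham and from 20919.3 to 22106.7 in WT TAC. The sum of 8 fibroblast markers ranged from 313.5 to 399.8 in WT sham and from 935.8 to 1076.9 in WT TAC, and that of 8 measured macrophage markers from 110.4 to 131.3 and from 248.1 to 302.5. Of these 6 of 8 fibroblast and 8 of 8 macrophage markers rose, against 13.6% of all genes. Among the 10 cardiomyocyte markers Myh6 fell (-0.68) and Ttn rose (0.49), with a median of -0.21. No marker of the 3 types was at 0 in any library. Their part in the changes of the 10 genes was not tested. In whole ventricle, fewer cells of a type and less RNA per cell cannot be told apart.

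Among the other genes of the pathway 24 were listed, and 21 were measured. Bcat1, Slc7a5 and Slc43a1 were not found by name among the 8987 genes. In WT TAC 6 of the 21 fell and none rose, with a median of -0.34, and with a term for the set 13 fell and none rose. Ppm1k, the phosphatase that reactivates the complex, measured 14.6, 18.8, 19.4 and 19.7 RPKM in WT sham against 8.6, 13.8 and 13.7 in WT TAC. Its groups did not overlap, and it fell by 0.59 (SE 0.17, adjusted p = 0.0371). That call was lost without any 1 of 9 libraries, WT sham 6 and WT TAC 19 being those whose removal kept it, and without WT TAC 1 its change was -0.38. With the set term it fell by 0.55 (adjusted p = 0.000229). Auh, a hydratase of the leucine branch, fell by 0.38 (adjusted p = 0.0290). Echs1 (-0.33) and Hsd17b10 (-0.46), which handle isoleucine fragments, also fell, as did Pcca (-0.50) and Mcee (-0.50), which carry propionyl-CoA towards the citric acid cycle. In the first set alone the calls of these 5 genes were lost, and in the compared groups alone those of all but Hsd17b10. Mcee lost its call without WT sham 7, and Auh without WT sham 7, WT sham 15, WT TAC 17 or WT TAC 19. Echs1 lost it without WT sham 7, 13 or 15, WT TAC 1 or 19 or either caPI3Kalpha TAC library, and Pcca without any of these or either caPI3Kalpha sham library. Across these removals of 1 library the adjusted p of the lost calls ran from 0.0503 to 0.111, and the changes stayed below 0. Klf15, a transcription factor known to promote expression of this pathway in heart, measured 18.7, 10.7, 13.6 and 12.7 in WT sham against 13.8, 11.3 and 7.1 in WT TAC (-0.38, SE 0.24, adjusted p = 0.313). Slc25a44, the mitochondrial carrier for branched-chain amino acids, ranged from 3.5 to 4.6 in WT sham and from 4.7 to 5.0 in WT TAC (0.24, SE 0.12, adjusted p = 0.172).

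Genes of other mitochondrial fuel pathways were lower in the same comparison, and whether the fall was particular to the 10 genes was not tested. Of 25 fatty acid oxidation genes 17 fell, with a median of -0.61. Of 17 citric acid cycle genes 11 fell (median -0.39). Of 11 listed genes of pyruvate entry and the pyruvate dehydrogenase complex with its regulators 3 fell (median -0.38), none of them a subunit of the complex: Brp44, a subunit of the mitochondrial pyruvate carrier (-0.50), Pdp2, a phosphatase that activates the complex (-0.58), and Pdk4, a kinase that inhibits it (-0.88). The third, Pdk4, was named after its values were seen. Estimates were below 0 for 25 of 25, 17 of 17 and 9 of 11 genes of these lists. Over the 11 libraries the genes whose log2 level followed the mean of the 10 most closely were Hadha (Pearson's r = 0.995), Acaa2 (0.980), Suclg1 (0.980), Kcnv2 (0.966) and Idh3g (0.964). Hadha and Acaa2 encode enzymes of fatty acid beta-oxidation, Suclg1 and Idh3g subunits of citric acid cycle enzymes, and Kcnv2 a potassium channel subunit. These values describe 11 libraries that share groups and library sets. Between single genes of the 10, Pearson's r over the same libraries ran from -0.77 (Bcat2 and Hibch) to 0.94 (Dbt and Hibadh). Bckdha followed the kinase gene Bckdk (0.91) but not its partner chain Bckdhb (-0.22), and Ivd followed Mccc2 (0.89).

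The second comparison, caPI3Kalpha sham with WT sham, asks what the active kinase does without added load. None of the 10 genes passed in limma, where 0.0111% of all genes passed. An unadjusted p under 0.05 was found for 2 of the 10 (Bckdhb and Hibadh) and for 1193 of all 8987 genes. Bckdha measured 59.1 and 80.5 RPKM in caPI3Kalpha sham (0.46, SE 0.23, adjusted p = 0.326). Bckdhb measured 21.1 and 15.9 (-0.50, SE 0.16, adjusted p = 0.326), below all 4 WT sham libraries. Ivd, at 63.6 and 75.9, lay around the WT sham values (-0.04, SE 0.11). With a term for the set, which leaves WT sham 6 as the only WT sham library of the same set, Bckdha stood at 0.02, Hibadh at -0.07 and Bckdhb at -0.28. Without WT sham 6, when every WT sham library is of the other set, 3 genes were lower, Bckdhb (-0.57), Dbt (-0.54) and Hibadh (-0.56), as were 8.71% of all genes.

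The third comparison, caPI3Kalpha TAC with caPI3Kalpha sham, gives the response to load in mice with the active kinase; all 4 libraries are of the first set. None of the 10 genes passed, and 0% of all genes did. In limma 1 of the 10, Bckdhb, had an unadjusted p under 0.05, as had 454 of all 8987 genes. Bckdhb measured 21.1 and 15.9 RPKM in sham and 12.5 in both TAC libraries, a change of -0.53 (SE 0.18, adjusted p = 0.696). Dbt measured 15.0 in both sham libraries and 13.0 and 11.9 in TAC (-0.26, SE 0.22). Mccc2 measured 16.6 and 15.6 against 13.1 and 13.0 (-0.29, SE 0.14), and Ivd 63.6 and 75.9 against 63.3 and 61.8 (-0.15, SE 0.13). Bckdha measured 59.1 and 80.5 against 67.7 and 79.0 (0.08, SE 0.27), and Hibadh 85.1 and 81.2 against 83.6 and 76.4 (-0.06, SE 0.21). Both TAC libraries lay under both sham libraries for 6 of the 10 genes (Bcat2, Bckdhb, Dbt, Ivd, Mccc1 and Mccc2) and for 20% of all genes. The opposite held for Bckdk, with 14.2 and 17.8 in sham and 18.3 and 18.5 in TAC (0.20, SE 0.17). With 2 libraries a group the 95% intervals are wide: that of Ivd ran from -0.44 to 0.14 and that of Bckdha from -0.50 to 0.67.

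Ppm1k was the pathway gene that passed here with the set term, where 0.389% of all genes were lower. It measured 12.4 and 11.9 RPKM in caPI3Kalpha sham and 6.9 and 7.1 in caPI3Kalpha TAC, a fall of 40.7% (-0.75, adjusted p = 0.00714 with the set term and 0.532 without it). Because all these libraries are of the first set, the term left the estimate at -0.75. It changed the SE, from 0.22 to 0.096. In the first set alone Ppm1k did not pass. The other 20 pathway genes measured did not pass with or without the set term.

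The fourth comparison, caPI3Kalpha TAC with WT TAC, sets the loaded ventricles of both genotypes side by side. Bckdha was higher in caPI3Kalpha TAC, at 67.7 and 79.0 RPKM against 46.0, 28.8 and 28.6, a log2 difference of 1.11 (SE 0.24, adjusted p = 0.0309). It was the 1 of the 10 that passed, where 0.746% of all genes were higher. The groups did not overlap, but WT TAC 1, the WT TAC library of the same set, stood nearest, and within that set the difference was 0.66. With the set term it was 0.73 (adjusted p = 0.0167). The call was lost without WT sham 15, WT TAC 17, WT TAC 19, caPI3Kalpha TAC 11 or caPI3Kalpha TAC 211, where the adjusted p ran from 0.0520 to 0.213 and the difference from 1.00 to 1.22.

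Bckdk measured 18.3 and 18.5 RPKM in caPI3Kalpha TAC, above the 14.5, 12.1 and 11.2 of WT TAC (0.54, SE 0.15, adjusted p = 0.0580); with the set term the difference was 0.35 (adjusted p = 0.0776). Ivd measured 63.3 and 61.8 against 48.1, 47.8 and 44.0 (0.42, SE 0.12, adjusted p = 0.0567), and Mccc2 13.1 and 13.0 against 11.2, 9.3 and 11.1 (0.30, SE 0.13, adjusted p = 0.129). With Bckdha these are 4 of 10 genes with both caPI3Kalpha TAC libraries over all 3 WT TAC libraries, as were 11.5% of all genes. Bckdhb went the other way, at 12.5 in both libraries against 13.4, 17.5 and 15.6 (-0.29, SE 0.17, adjusted p = 0.236), but its difference was -0.10 both with the set term and within the first set. With the set term Ivd passed as well (0.38, adjusted p = 0.0430), and 2 of 10 genes were then higher, against 1.26% of all genes. Compared with WT TAC 1 alone, the library of the same set, both caPI3Kalpha TAC libraries were higher for 8 of 10 genes and for 22.3% of all genes; Bckdhb was lower and Bcat2 stood on either side. Of the other pathway genes none of 21 passed without the set term. An unadjusted p under 0.05 was found for 4 of the 21 and for 2947 of all 8987 genes. With it Auh (0.40) and Acat1 (0.40) were higher and Ppm1k lower (-0.37, adjusted p = 0.0466), where 7.74% of all genes were lower; Acat1 was named after its values were seen.

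Of the comparison lists, 8 of 25 fatty acid oxidation genes were higher in caPI3Kalpha TAC than in WT TAC, with a median of 0.38, against 0.13 for the 10 genes and -0.18 over all genes. With the set term 16 of the 25 were higher, and these medians were 0.41, 0.25 and -0.14. Cell type markers moved here as well: the fibroblast sum ranged from 418.6 to 449.7 RPKM in caPI3Kalpha TAC, the macrophage sum from 112.9 to 131.7 and the cardiomyocyte sum from 25610.5 to 26359.3. Each of these ranges lay apart from that of WT TAC. Of the 10 cardiomyocyte markers 1 was higher (Mb, 0.52) and 2 were lower, among them Ttn (-0.61). Lower were also 4 of 8 fibroblast and 5 of 8 macrophage markers. Over all 8987 genes 519 were lower and 67 higher. The part of the markers in the differences was not tested.

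**Figure D3:**
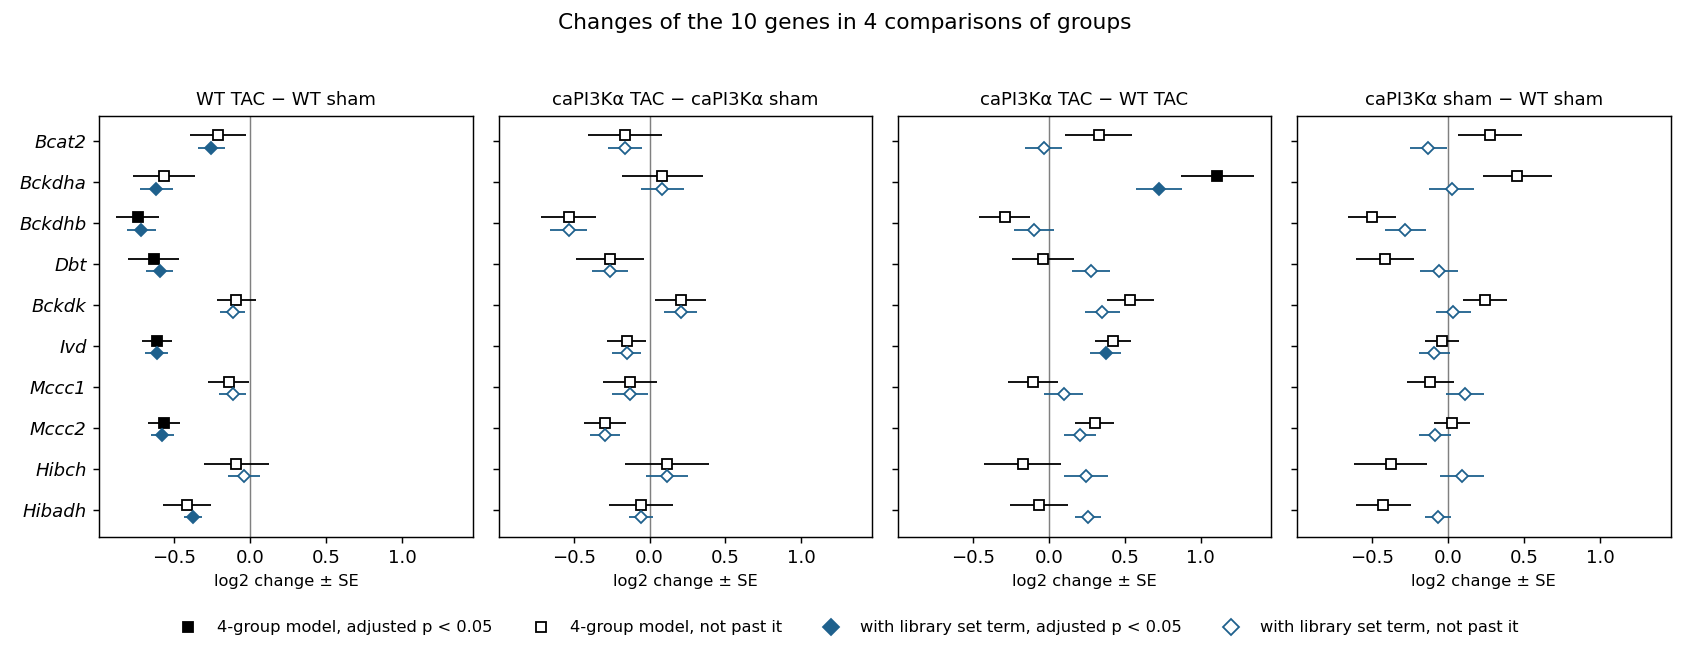
Log2 changes of the 10 genes with their SE in 4 comparisons, from the 4-group model (black squares) and with a term for the library set (blue diamonds); filled symbols passed an adjusted p under 0.05. In WT TAC against WT sham the estimates lie below 0, and Bckdha stands farthest from 0 in caPI3Kalpha TAC against WT TAC.

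The interaction asks whether the response to TAC differed between the genotypes. None of the 10 genes passed in limma, where 0.312% of all genes passed. An unadjusted p under 0.05 was found for 1 of the 10 (Ivd) and for 926 of all 8987 genes. The estimate was above 0 for 10 of 10 genes, with a median of 0.29. Over all genes the median was -0.16, and 6260 of 8987 estimates were below 0. For Ivd the estimate was 0.46 (SE 0.16, adjusted p = 0.329) and for Bckdha 0.65 (SE 0.33, adjusted p = 0.554). With a term for the set, Bckdha (0.70, adjusted p = 0.0414) and Ivd (0.47, adjusted p = 0.0432) passed, 2 of 10, against 0.835% of all genes. The set, read from the same data, moved the SE of Bckdha to 0.18 and that of Ivd to 0.12. Within the first set, the only set with both genotypes, the estimates were 0.58 and 0.47. That set holds 1 library of each WT group, so it cannot decide whether the responses differ. For Bckdhb the estimate was 0.21 (SE 0.23), with a 95% interval from -0.30 to 0.72. Mccc1 stood at 0.01 (SE 0.22).

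Ratios within a library set the kinase against its target without regard to library scale. The ratio of Bckdk to Bckdha RPKM was 0.235, 0.307, 0.276 and 0.254 in WT sham 6, 7, 13 and 15, and 0.315, 0.420 and 0.392 in WT TAC 1, 17 and 19. The groups did not overlap, and the ratio was 1.39-fold higher in WT TAC (log2 0.48), with a two-sided exact permutation p of 0.0286, the smallest that 4 against 3 libraries can give. Adjusted over the 4 comparisons of this ratio it was 0.114. The ratio was chosen with earlier results of these data known, which the adjustment does not take into account. Within the sets the log2 difference was 0.42 (first) and 0.54 (second). In caPI3Kalpha sham the ratio was 0.240 and 0.221, and in caPI3Kalpha TAC 0.270 and 0.234, all below the 3 WT TAC values. For caPI3Kalpha TAC against caPI3Kalpha sham the log2 difference was 0.12 (exact permutation p = 0.667, smallest possible 0.333). Against WT TAC it was -0.57 (exact permutation p = 0.2, smallest possible 0.1), and for caPI3Kalpha sham against WT sham -0.22 (exact permutation p = 0.2, smallest possible 0.0667). Within the first set, which holds 1 library of each WT group, these differences between genotypes were -0.33 (exact permutation p = 0.333, the smallest possible) and -0.03 (exact permutation p = 1, smallest possible 0.333).

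A pair of other ratios was chosen after the values were seen and is given with no test. The ratio of Bckdk to Ppm1k, kinase to phosphatase, was 1.05 in WT sham 6 and 0.649 to 0.686 in the other 3 WT sham libraries. It was 1.69 in WT TAC 1 and 0.877 and 0.818 in WT TAC 17 and 19. In caPI3Kalpha sham it was 1.15 and 1.50, and in caPI3Kalpha TAC 2.65 and 2.61, the highest of the 11 libraries. The ratio of Bckdha to Bckdhb, the 2 chains of E1, ran from 1.65 to 3.43 in WT TAC, from 2.80 to 5.06 in caPI3Kalpha sham and from 5.42 to 6.32 in caPI3Kalpha TAC. In both ratios the first-set library of each WT group was the highest of its group, and all caPI3Kalpha libraries are of that set.

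**Figure D4:**
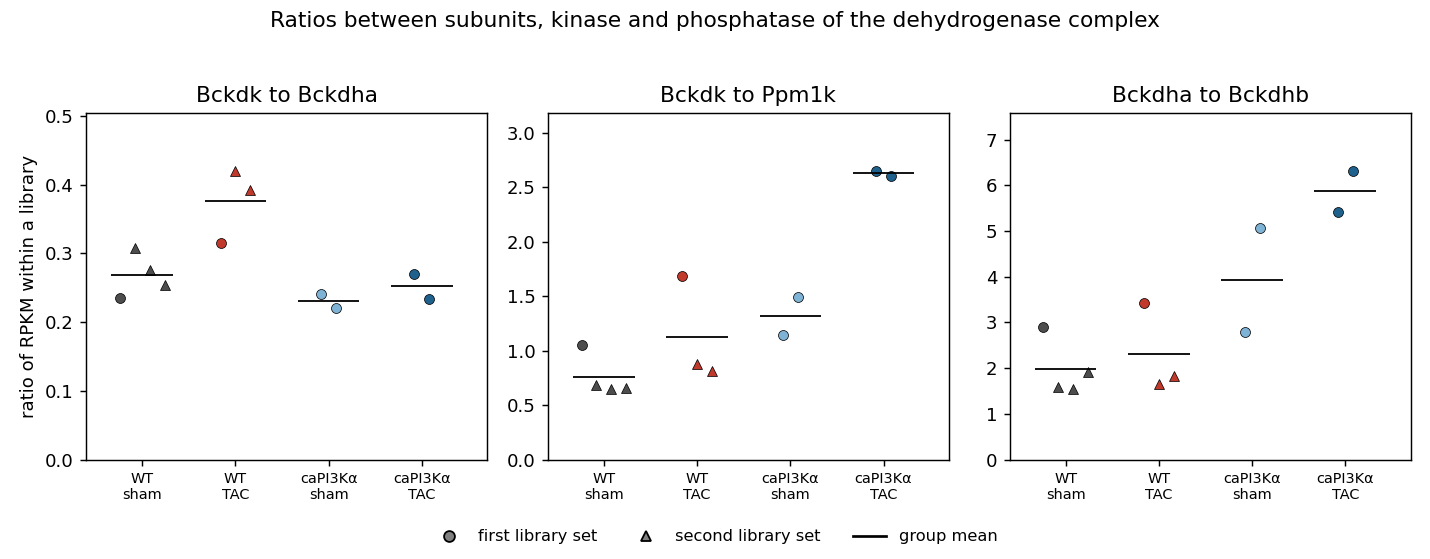
Ratios of RPKM within each library, by group (circles, first library set; triangles, second; bars, group means). Bckdk to Bckdha is highest in the 3 WT TAC libraries, from 0.315 to 0.420, while Bckdk to Ppm1k (2.61 and 2.65) and Bckdha to Bckdhb (5.42 and 6.32) are highest in the 2 caPI3Kalpha TAC libraries.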

How the data were processed

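Messenger RNA was measured in 11 left ventricle libraries. The deposited table holds RPKM, computed by the authors, per the file headers. Per the labels' protocols the libraries were poly-A selected and read from 1 end. The labels do not describe the kit as keeping strand, so reads of overlapping antisense genes cannot be told apart. The submitters' processing notes name CASAVA 1.6, Bowtie, Partek 6.5 and mm9 without saying what each did. After 261 blank lines, 2 repeats and 1 error mark were dropped, 8987 genes of 9251 lines were used. The authors' RPKM summed to between 202916.4 and 212396.3 per library, and depth is unknown. Columns were matched to samples by group and animal number, and 0 columns matched none; for the library titled WT sham 15 the source name gives animal 13, the number of another WT sham library, and the title was used. These libraries differed by a median of 0.13 on the log2 scale over all genes, against 0.13 to 0.15 for the other pairs of 1 group and set. The 16 miRNA libraries were not used here.

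The main test was limma 3.58.1 in R 4.3.3 (lmFit, eBayes with trend) on log2(RPKM + 0.5), in 1 model of 4 groups over the whole table. Tests were two-sided and p-values were adjusted by Benjamini and Hochberg's method, with a threshold of 0.05. Requiring a mean of at least 1 RPKM took out 0 genes. Each of the 8987 genes reached at least 3 RPKM in some library, so shares of all genes leave out scarcer genes. Ratios used exact permutation tests. Alternatives were other pseudocounts (0.1 and 1), no filter and a mean of 10 RPKM, quantile normalization, centring on medians, the compared groups alone, a set term, each set alone, eBayes without trend and leaving out each library. The groups share only 1 animal number in the labels, so no block was fitted.

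Named are the 10 genes, other pathway genes that passed, Ppm1k, Klf15, Slc25a44, Pik3ca and the 5 genes closest to the mean of the 10; other lists are given by counts. The members, lists, library sets and tests were chosen with earlier results of these data known.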

Additional observations from a re-analysis of the deposited data

Results flagged for a closer look

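Bckdk measured 15.3 RPKM in WT sham 6, while the other 3 WT sham libraries lay between 12.6 and 12.9. The gap to the nearest library was 0.889 of the whole range, above the 95% limit of Dixon's test for 4 samples. Only WT sham has 4 libraries, so 10 groups of values, 1 for each gene, were tested and 1 stood out; chance flags about 1 in 20 groups. WT sham 6 is the only WT sham library of the first set, and the first-set library of WT TAC was also the highest of its group for Bckdk, at 14.5 RPKM against 12.1 and 11.2.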

How the results depend on the processing

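For WT TAC against WT sham, 4 of the 10 genes passed, all lower, where 2.85% of all genes were lower. With a term for the library set 7 passed (9.01% of all genes lower), and in the second set alone 6 (6.69%). With quantile normalization 4 passed (4.88%), and centred on library medians 6 (6.79%). Between 3 and 5 passed when 1 library was left out. Bckdhb, Ivd and Mccc2 passed in 21 of 22 alternatives, all but the first set alone, and Dbt in 15 of 22. Not all of the 22 could differ much. The run with no filter repeats the main run, and leaving out a caPI3Kalpha library changes the spread but not the WT estimate. For caPI3Kalpha sham against WT sham the count was 0, where 0.0111% of all genes passed. It was between 0 and 3 when 1 library was left out, with 3 without WT sham 6, where 8.71% of all genes were lower. For caPI3Kalpha TAC against WT TAC the count was 1, where 67 of all 8987 genes were higher. It was 2 with quantile normalization (72 of all genes higher), 3 centred on library medians (130) and 2 with the set term (113). It was 0 in the compared groups alone and between 0 and 3 when 1 library was left out (3 without WT sham 6 or WT TAC 1). In the first set alone, with 1 WT TAC library, the Bckdha call was lost. For the interaction the count was 0, where 0.312% of all genes passed. With the set term it was 2, where 0.835% of all genes passed with a positive estimate. For the other runs the share of all genes is not given. The fit of caPI3Kalpha TAC against caPI3Kalpha sham gave 0 of the 10 genes in each alternative run. The causes of these shifts were not tested. The log2 difference of the Bckdk to Bckdha ratio in WT was 0.42 in the first set, 0.54 in the second (exact permutation p = 0.1, the smallest possible) and 0.39 to 0.60 when 1 library was left out (exact permutation p from 0.0667 to 0.1); none of these smaller designs can reach 0.05. No result changed sign past its threshold. Scaling moved all genes in WT TAC from 1225 higher and 256 lower to 486 and 439 (quantile) and to 561 and 610 (centred). The number of mice, 2 in each caPI3Kalpha group, limits the precision, and depth is unknown. No paired analysis was possible because the groups share fewer than 2 animal numbers.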
